A study of Mus musculus with 15 samples.

Results

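The 35 genes described here encode the contractile unit of heart muscle (the sarcomere), the Z-disc that anchors it, and the ubiquitin ligases and chaperones that build or remove muscle proteins. They were taken from a list of gene symbols, drawn up with earlier results of these data known, and the rule itself sets no limit on a measured value. All 35 were among the 14337 genes with values, and all 35 were among the 12848 genes tested, which had to average a log2 RPKM of 0 or more. By role, 6 belong to the thin filament, 5 to the thick filament, titin and M-band, 13 to the Z-disc and its anchors, 5 to the PDZ-LIM and FHL adaptor families, 2 to myosin folding and 4 to the muscle ubiquitin ligases.

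In a sarcomere, thin filaments of actin, tropomyosin and troponin slide past thick filaments of myosin and myosin-binding protein C, while titin spans from the Z-disc to the M-band and keeps the filaments in register. The Z-disc joins neighbouring sarcomeres through alpha-actinin, links them to desmin and the cell membrane, and holds LIM-domain proteins that are known to take part in the response of the heart to stretch. Muscle RING finger ligases and atrogin-1 mark muscle proteins for the proteasome and are well known from muscle wasting and from the remodelling of the loaded heart.

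RNA-Seq was performed on poly(A)-captured RNA of primary cardiomyocytes from the hearts of wild-type C57/BL6 mouse pups aged 1 to 3 days, in 15 libraries. After 5 days of incubation the cells spent 24 h in starvation medium with 0.5% FBS, were treated on day 6 and again a day later, and were harvested on day 8. The 3 control libraries (S1 to S3) came from cells given saline. The 4 AngII libraries (S5 to S8) came from cells given 1 µM angiotensin II, a peptide hormone that enlarges cultured cardiomyocytes. The 4 ldCil libraries (S9 to S12) came from cells given 20 nM cilengitide, a cyclic RGD peptide that blocks αvβ3 integrin when the dose is high. The 4 AngII+ldCil libraries (S13 to S16) came from cells given both. All groups share the starvation, and the cells were taken from whole hearts, so other heart cells can be among them. Nothing in the sources used here says that the libraries of a group were separate cultures, so a p-value here speaks for library-to-library spread, part or all of which could be technical.

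Values are given as log2 RPKM, read numbers divided by the length of the gene and by the size of the library, after conditional quantile normalisation by the authors, which adjusts for gene length and GC content. A difference of 1 is a factor of 2. The values hold no read counts, so depth is unknown. Ranked from the top, the first 4684 values of a library were the same in all 15 libraries to within 1e-06, down to a log2 RPKM of 4.5, and 31 of the 35 members lay above that in every library. For these a value records the rank of the gene in its library, and a difference records a change of rank. Near a log2 RPKM of 11, neighbouring ranks were 0.065 apart, and near 5 they were 0.00042 apart, so the highest members moved in coarse steps. Of 26 cardiomyocyte markers outside the members, all 26 were listed, led by Nppa with a mean of 11.99 and Actc1 with 11.69, and their summed RPKM ran from 19957 in S1 to 24807 in S15. Fibroblast markers were also high, with Sparc at 10.18 and Col1a1 at 9.81, whereas Myod1, Myog and the adult skeletal myosins Myh1, Myh2 and Myh4 were not listed. The first principal component of all genes tested held 49.0% of the variance and set S6, S7, S11, S12 and S15 (scores of −42.0 to −38.0) apart from S1, S3, S5, S9 and S10 (37.3 to 48.0). Each of these sets spans several treatments, but not evenly. The low-scoring set holds no control library, and the high-scoring set holds no AngII+ldCil library. Comparisons against control therefore also differ in this component, and its part in them was not tested. Interferon-stimulated genes followed the first principal component. Their list mean, centred on each gene, was 2.13 to 2.68 in S1, S3, S5, S9 and S10. It was 0.36 in S2 and −1.90 to −0.39 in the rest.

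Promoter windows from 250 bases before to 50 bases after a transcription start were held by RefSeq (GRCm38.p6) for 29 of the 35 genes, in 40 windows. Myom2, Tcap, Nexn, Xirp1, Trim55 and Fbxo32 had none. Both strands were searched for the CArG box (bound by serum response factor), the MEF2 site, the MCAT element CATTCC (bound by TEAD factors), the FOXO site GTAAACA and the TATA box TATAAA. The CArG and MEF2 patterns are AT-rich and the TATA box can overlap them. A CArG box was in 17.5% of the members' windows (Myom1, Nebl, Ldb3, Fhl1 and Fhl2) and in 1.63% of all 32851 windows. A MEF2 site was in 15% (Ttn, Mybpc3, Myoz2, Synpo2l and Xirp2) against 1.86% of all. The MCAT element was in 30%, in 11 genes, against 14.66%. The TATA box was in 15% against 13.62%, and the FOXO site in 2.5% against 3.65%. Windows of 1 gene can overlap, some starts lie inside the gene, as for the Nebl window with the CArG box, and a match is a description of letters only.

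The windows of 6 genes are shown as examples of the motifs counted, in genes described at length below; no result below uses a motif: Trim63 (chr4:134314870-134315169, plus strand), the pair Fhl1 (chrX:56779433-56779732, plus strand) and Fhl2 (chr1:43196712-43197011, minus strand), Xirp2 (chr2:67445752-67446051, plus strand), Ttn (chr2:76982498-76982797, minus strand) and Nebl (chr2:17462807-17463106, minus strand). Each is written 5′ to 3′ in the direction of the gene, and capitals mark every match to the motifs searched.
Trim63: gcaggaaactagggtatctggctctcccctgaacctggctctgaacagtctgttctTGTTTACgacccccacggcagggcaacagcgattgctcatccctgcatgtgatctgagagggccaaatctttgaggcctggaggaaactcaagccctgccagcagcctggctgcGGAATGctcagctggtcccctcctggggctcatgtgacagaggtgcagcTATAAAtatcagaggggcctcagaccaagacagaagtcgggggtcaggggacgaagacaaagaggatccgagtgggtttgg
Fhl1: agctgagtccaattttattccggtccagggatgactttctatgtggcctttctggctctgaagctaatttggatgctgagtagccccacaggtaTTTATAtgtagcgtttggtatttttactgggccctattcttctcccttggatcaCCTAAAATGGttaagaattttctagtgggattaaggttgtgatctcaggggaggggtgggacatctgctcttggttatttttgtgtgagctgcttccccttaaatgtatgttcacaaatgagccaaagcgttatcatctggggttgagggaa
Fhl2: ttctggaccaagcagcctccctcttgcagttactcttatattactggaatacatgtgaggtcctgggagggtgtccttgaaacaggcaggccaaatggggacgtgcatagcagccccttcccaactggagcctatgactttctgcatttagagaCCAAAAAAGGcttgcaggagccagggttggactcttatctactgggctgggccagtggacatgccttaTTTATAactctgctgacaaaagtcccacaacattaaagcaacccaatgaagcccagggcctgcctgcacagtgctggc
Xirp2: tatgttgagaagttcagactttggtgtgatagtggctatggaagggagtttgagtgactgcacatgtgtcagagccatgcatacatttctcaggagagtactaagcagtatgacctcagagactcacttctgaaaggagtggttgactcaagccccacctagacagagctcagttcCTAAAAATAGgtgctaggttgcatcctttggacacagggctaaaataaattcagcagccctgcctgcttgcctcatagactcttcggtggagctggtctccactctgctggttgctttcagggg
Ttn: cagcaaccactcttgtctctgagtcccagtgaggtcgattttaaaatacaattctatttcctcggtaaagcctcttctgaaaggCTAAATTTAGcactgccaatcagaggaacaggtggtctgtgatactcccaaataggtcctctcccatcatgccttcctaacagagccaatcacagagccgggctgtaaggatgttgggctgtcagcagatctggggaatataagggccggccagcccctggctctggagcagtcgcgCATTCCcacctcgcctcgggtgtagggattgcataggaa
Nebl: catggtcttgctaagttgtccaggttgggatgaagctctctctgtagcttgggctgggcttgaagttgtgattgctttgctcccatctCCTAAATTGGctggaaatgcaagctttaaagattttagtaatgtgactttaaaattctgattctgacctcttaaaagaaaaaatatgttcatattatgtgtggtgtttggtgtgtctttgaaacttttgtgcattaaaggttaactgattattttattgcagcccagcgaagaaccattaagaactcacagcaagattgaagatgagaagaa
Trim63 held the single FOXO match of the members, 194 to 188 bases before its start on the minus strand, as well as an MCAT element and a TATA box 31 to 26 bases before it. Fhl1 and Fhl2 both held a CArG box, 102 to 93 and 96 to 87 bases before the start of the window shown, and Nebl 162 to 153. Fhl1 and Nebl also have windows at other starts, and these held no CArG box. The Nebl start shown lies inside the gene, and the letters before it end in ttgcag, as at the end of an intron. Whether transcripts begin there was not tested, so the Nebl match may not be a promoter match. The other Fhl2 window held a CArG box too. Xirp2 held its MEF2 site 74 to 65 bases before the start and Ttn 166 to 157.

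The members spanned a wide range of levels, and 8 of them were among the 100 highest means of all genes. Cardiac troponin T (Tnnt2) was the highest, with a mean log2 RPKM of 11.07 ± 0.195 (SD, n = 15), and the muscle ligase Trim54 the lowest with 4.77 ± 0.545. In all, 5 members had a mean of at least 10, 19 a mean of at least 8 and 5 a mean under 6, beside a median of 3.57 over all genes listed. The plot of levels by gene shows this order within each role.

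**Figure D1:**
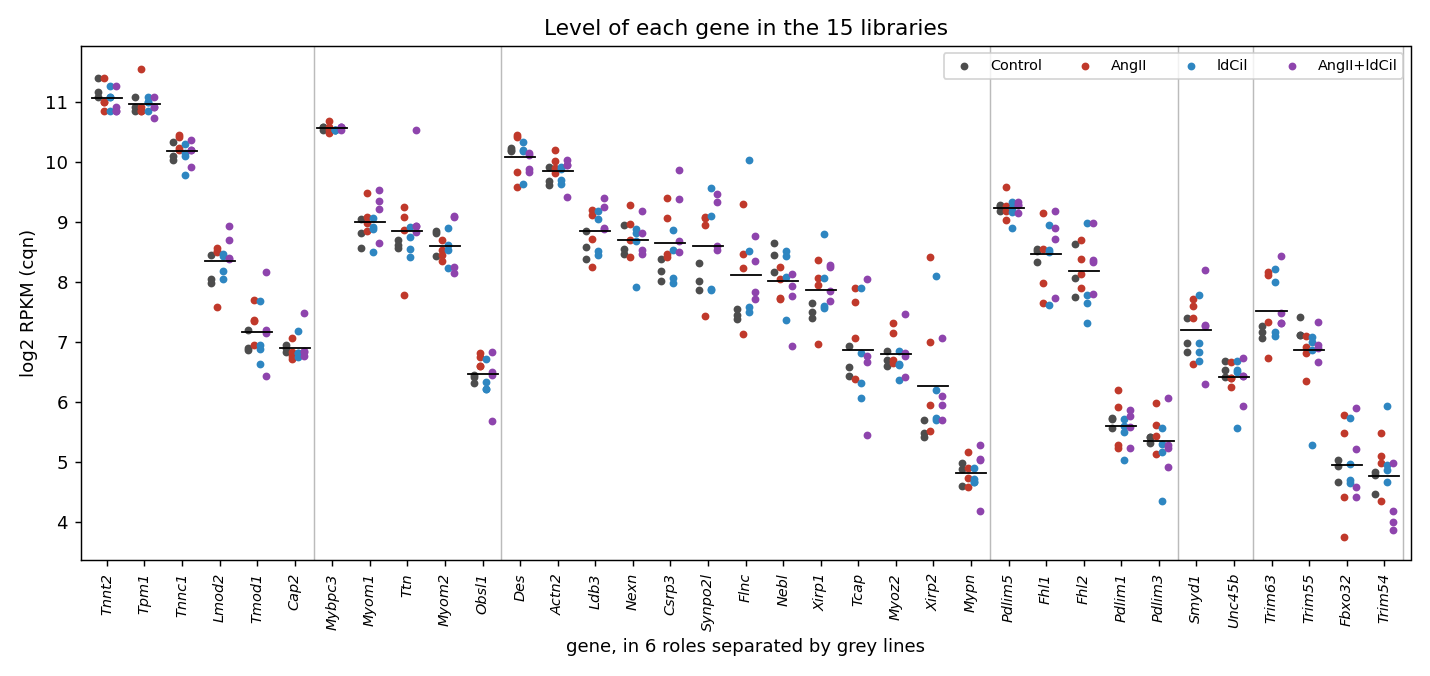
Log2 RPKM (vertical axis) of the 35 genes (horizontal axis, in 6 roles) in the 15 libraries, coloured by treatment, with a black line at the mean over all libraries. Tnnt2 lies at the top with a mean of 11.07, Trim54 at the bottom with 4.77, and within most genes the points of the 4 treatments overlap.

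No member passed an adjusted p of 0.05 (limma, Benjamini-Hochberg over the 12848 genes tested) in any of the 5 comparisons, and neither did any other gene: the share called was 0% for AngII against control, 0% for ldCil against control, 0% for AngII+ldCil against control, 0% for AngII+ldCil against AngII and 0% for the AngII by ldCil interaction. At an unadjusted p under 0.05, 0 of the 35 members passed for AngII against control (6.04% of all genes did), 0 for ldCil against control (1.95%), 2 for AngII+ldCil against control (5.62%), 1 for AngII+ldCil against AngII (2.58%) and 1 for the interaction (3.86%). These members were Csrp3 (chr7:48830398-48848033, minus strand), Nebl (chr2:17343909-17731464, minus strand) and Trim54 (chr5:31116712-31137630, plus strand; GRCm38, GENCODE M21). The first 3 comparisons share the control libraries, and AngII libraries serve in both AngII comparisons. With the libraries weighted by how closely each follows its group (limma's arrayWeights, from 0.113 for S5 to 7.01 for S1), adjusted calls were made on 19 members for AngII against control, where 48.6% of all genes were called. They were made on 10 for AngII+ldCil against control (18% of all genes), 11 for AngII+ldCil against AngII (31.5%), 5 for the interaction (18.6%) and 0 for ldCil against control (0.0233%). For AngII against control, most of the weight lay on S1 in control and on S6 and S7 in AngII. S1 is in the high-scoring set of the first principal component, and S6 and S7 are in the low-scoring set.

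The direction of the members' fold changes was as follows. For AngII against control, 25 of 35 lay above 0, with a median log2 fold change of 0.16 beside 0.02 over all genes tested. For ldCil against control, 16 of 35 lay above 0, with a median of −0.007 beside 0.001. For AngII+ldCil against control, 24 lay above 0, with a median of 0.09 beside 0.05, and against AngII 15 did, with a median of −0.04 beside 0.01. For the interaction 21 did, with a median of 0.04 beside 0.02. Of the 12848 genes tested, 6902, 6457, 7506, 6732 and 6704 lay above 0 in the same order. When each library was centred on the cardiomyocyte markers outside the members, the medians of all genes moved to −0.29, −0.16, −0.12, 0.15 and 0.32 in the same order, and the members above 0 became 8, 8, 13, 27 and 29. This centring used the mean of the 26 markers, whose median log2 fold changes were 0.21, 0.08, 0.13, −0.06 and −0.12 in the same order. Centring on their median was not run. The markers include Nppa, Nppb and the sarcomere genes Actc1, Myh6, Myl2, Myl3 and Tnni3. The sign of many members thus depends on whether they are read against all genes or against the mean of these markers. Fewer cardiomyocytes in a culture and less of the members' RNAs per cell cannot be told apart in such bulk samples. The plot of fold changes gives each member with its interval.

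**Figure D2:**
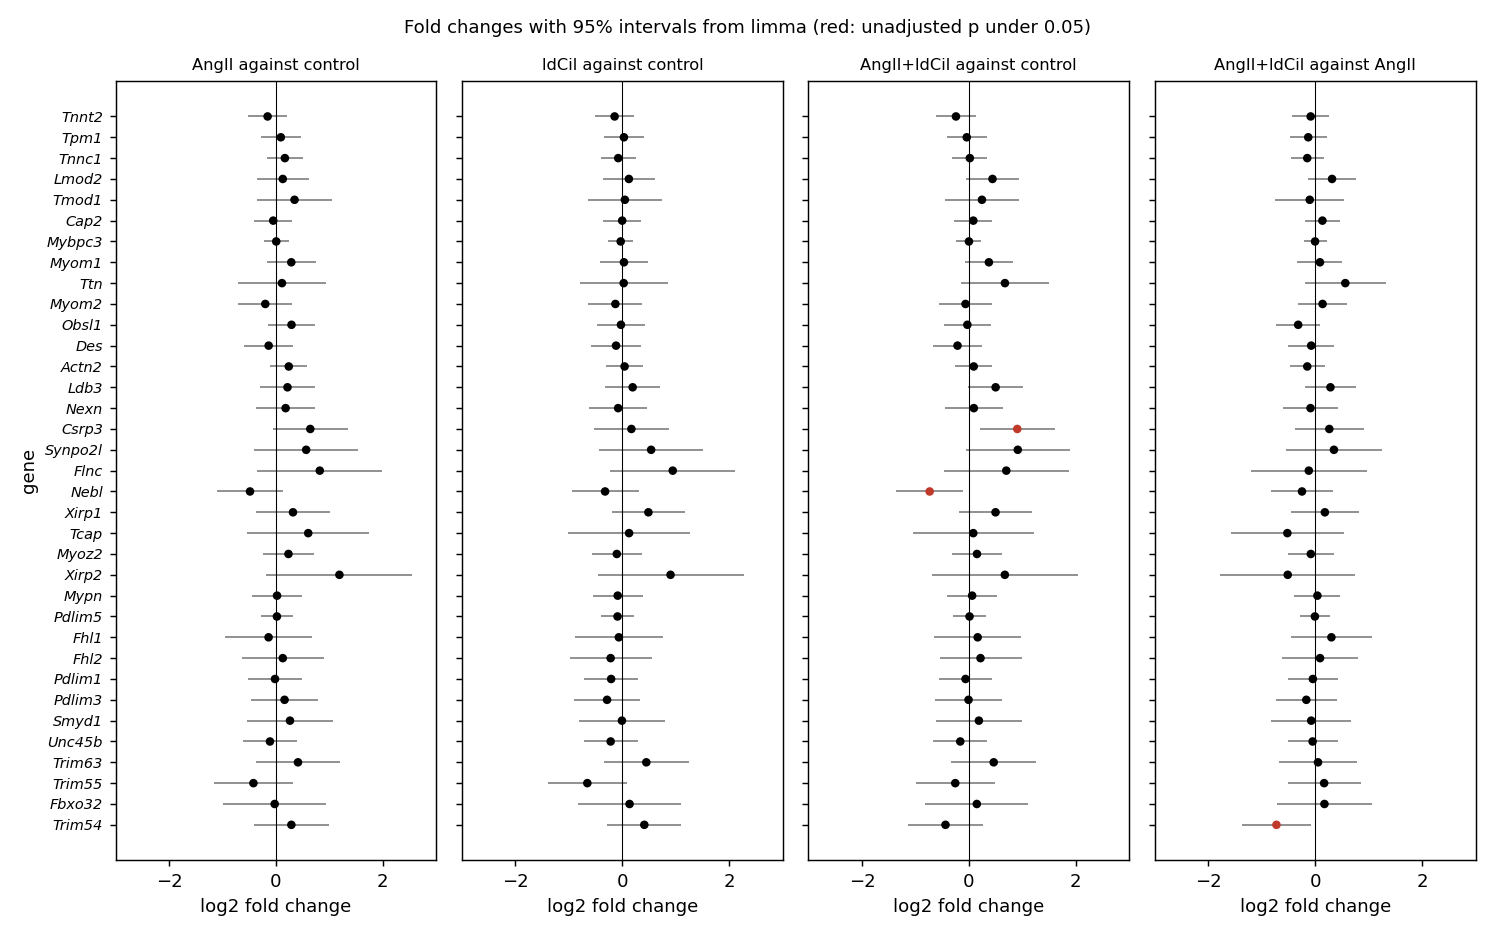
Log2 fold change (horizontal axis) of the 35 genes (vertical axis) in 4 comparisons; points are limma estimates, bars their 95% intervals, and red marks an unadjusted p under 0.05. Red points are Csrp3 and Nebl for AngII+ldCil against control and Trim54 for AngII+ldCil against AngII, and no point passed an adjusted p of 0.05.

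Tnnt2, Tpm1 and Tnnc1 of the thin filament were among the most abundant members and varied little. The means were 11.07 for Tnnt2, 10.97 for Tpm1 (alpha-tropomyosin) and 10.19 for Tnnc1 (troponin C), then 8.35 for Lmod2 (leiomodin 2, which elongates thin filaments), 7.16 for Tmod1 (tropomodulin 1, which caps their pointed ends) and 6.91 for Cap2 (which turns over actin filaments). Tnnt2 was 11.17, 11.08 and 11.40 in the control libraries, 11.40, 10.995, 10.995 and 10.85 in AngII, 11.27, 11.08, 11.08 and 10.85 in ldCil and 10.85, 10.85, 10.92 and 11.27 in AngII+ldCil. The lowest value, 10.85, occurred in all 3 treated groups, and the highest, 11.40, in S3 and S5, so every group overlapped. Tpm1 ran from 10.73 to 11.54 over the libraries, Tnnc1 from 9.78 to 10.45 and Cap2 from 6.72 to 7.49. For Tnnt2 the log2 fold change of AngII+ldCil against control was −0.24 (SE 0.17, unadjusted p = 0.188, adjusted p = 0.872, limma), and −0.15 without S3.

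Lmod2 and Tmod1 varied more. Lmod2 was 8.06, 8.45 and 7.99 in control, 7.59, 8.57, 8.51 and 8.52 in AngII, 8.19, 8.05, 8.47 and 8.44 in ldCil and 8.41, 8.39, 8.94 and 8.70 in AngII+ldCil. S5 held the lowest value and S15 the highest, and all groups overlapped. Its log2 fold change for AngII+ldCil against AngII was 0.32 (SE 0.21, unadjusted p = 0.157), 0.08 without S5 and 0.20 without S15. Tmod1, the member of this role with the widest range, was 6.88, 7.21 and 6.90 in control, 6.95, 7.37, 7.70 and 7.34 in AngII, 6.95, 6.88, 6.64 and 7.69 in ldCil and 7.15, 7.195, 8.17 and 6.44 in AngII+ldCil. The AngII+ldCil group held both the highest and the lowest of the 15 values, in S15 and S16, and so enclosed all other groups. For Tmod1 the fold change of AngII against control was 0.35 (SE 0.33, unadjusted p = 0.3), 0.23 without S7, 0.65 with library weights and 0.04 with centring on cardiomyocyte markers.

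In the thick filament group the levels were 10.56 for Mybpc3 (myosin-binding protein C), 8.997 for Myom1 and 8.60 for Myom2 (the M-band proteins myomesin 1 and 2), 8.85 for Ttn (titin) and 6.46 for Obsl1 (obscurin-like 1, an M-band linker). Mybpc3 had the narrowest range of the 35, a factor of 1.14 from lowest to highest. It was 10.58, 10.58 and 10.53 in control, 10.49, 10.53, 10.58 and 10.68 in AngII, 10.53 in each of the 4 ldCil libraries and 10.53, 10.58, 10.58 and 10.58 in AngII+ldCil. These are 4 distinct values near the top of each library, and libraries with the same value hold Mybpc3 at the same rank. Myom1 ran from 8.50 to 9.53 and Myom2 from 8.14 to 9.10. For Mybpc3 the log2 fold changes ran from −0.03 for ldCil to 0.01 for AngII, both against control with an SE of 0.11.

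Titin showed the largest single departure of this role. Ttn was 8.57, 8.70 and 8.62 in control, 7.78, 9.26, 9.08 and 8.87 in AngII, 8.55, 8.42, 8.74 and 8.92 in ldCil and 8.93, 8.84, 8.93 and 10.53 in AngII+ldCil. S16 lay at 10.53, with the next highest library, S6, at 9.26, and S5 was the lowest. The same libraries stood apart for long genes as a class: over 311 genes with a transcript of at least 10000 bases the median deviation from the gene's mean was 0.46 in S16 and −0.49 in S5, against −0.08 to 0.14 in the other libraries. The part of transcript length in the Ttn values was not tested. The Ttn fold change of AngII+ldCil against AngII was 0.56 (SE 0.36, unadjusted p = 0.135), and 0.16 without S16 or 0.24 without S5. The interaction was 0.54 (SE 0.52, unadjusted p = 0.321), and 0.13 without S16 or 0.22 without S5.

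Obsl1 was 6.42, 6.45 and 6.33 in control, 6.60, 6.81, 6.76 and 6.60 in AngII, 6.22, 6.34, 6.21 and 6.73 in ldCil and 6.51, 6.46, 6.84 and 5.69 in AngII+ldCil. All 4 AngII values lay above the 3 control values, and the lowest value by far was again in S16. The fold change of AngII+ldCil against AngII was −0.32 (SE 0.19, unadjusted p = 0.119), and −0.09 without S16.

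The 13 Z-disc genes held the widest ranges and the lowest p-value against control of the 35. Their means were 10.08 for Des (desmin), 9.85 for Actn2 (alpha-actinin 2), 8.85 for Ldb3 (the PDZ-LIM protein Cypher), 8.71 for Nexn (nexilin), 8.66 for Csrp3 (muscle LIM protein), 8.61 for Synpo2l (an actin-bundling Z-disc protein), 8.12 for Flnc (filamin C), 8.01 for Nebl (nebulette), 7.87 for Xirp1, 6.87 for Tcap (telethonin, which caps titin), 6.80 for Myoz2 (calsarcin-1), 6.27 for Xirp2 and 4.83 for Mypn (myopalladin). Xirp1 and Xirp2 are actin-binding repeat proteins of the Z-disc and intercalated disc. Among those not given by library below, the range was 9.42 to 10.21 for Actn2, 7.92 to 9.28 for Nexn, 7.43 to 9.58 for Synpo2l, 6.37 to 7.47 for Myoz2 and 4.18 to 5.28 for Mypn. For AngII against control 11 of the 13 fold changes lay above 0 with a median of 0.24, and for AngII+ldCil against control 11 of 13 with a median of 0.15. For ldCil against control 8 of 13 did, with a median of 0.13. Of the 12848 genes tested, 6902, 7506 and 6457 lay above 0 in these comparisons. With centring on the mean of the cardiomyocyte markers the AngII value turned below 0 for Actn2, Ldb3, Mypn, Myoz2 and Nexn. It stayed above 0 for Tcap, Csrp3, Synpo2l, Flnc, Xirp1 and Xirp2.

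Csrp3, whose protein is a LIM-domain cofactor of the Z-disc, had the largest share of its variance between the treatment groups, 43.7%, beside a median of 17.7% over the members and 18.3% over all genes tested. It was 8.19, 8.38 and 8.01 in control, 9.07, 8.46, 8.42 and 9.40 in AngII, 7.98, 8.07, 8.87 and 8.54 in ldCil and 8.49, 8.69, 9.38 and 9.86 in AngII+ldCil. All 8 libraries with AngII lay above the 3 control libraries, by least in S7 and by most in S16, while ldCil overlapped control. The log2 fold change was 0.64 (SE 0.33, unadjusted p = 0.0677, adjusted p = 0.782, limma) for AngII and 0.91 (SE 0.33, unadjusted p = 0.0142, adjusted p = 0.849) for AngII+ldCil. With each library left out in turn the latter ran from 0.66 to 1.11, and its unadjusted p was over 0.05 without S3. With library weights the values were 0.33 and 0.49, and centring on cardiomyocyte markers gave 0.33 for AngII. For AngII+ldCil against AngII the fold change was 0.26 (SE 0.30, unadjusted p = 0.395), and 0.01 without S16.

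Nebl, a nebulin-like protein that ties thin filaments to the Z-disc, had the lowest fold change of the role. It was 8.45, 8.17 and 8.65 in control, 7.72, 8.06, 8.24 and 7.73 in AngII, 8.51, 8.44, 7.37 and 8.08 in ldCil and 7.93, 7.77, 8.14 and 6.93 in AngII+ldCil. All AngII+ldCil values lay below the control values, S15 only just, and S16 was the lowest library. The other groups overlapped control. The log2 fold changes against control were −0.48 (SE 0.29, unadjusted p = 0.12) for AngII, −0.32 (SE 0.29, unadjusted p = 0.289) for ldCil and −0.73 (SE 0.29, unadjusted p = 0.0252, adjusted p = 0.849, limma) for AngII+ldCil. Without S16 the value for AngII+ldCil was −0.48, and its unadjusted p was over 0.05 without S1, S3 or S16. With library weights the values for AngII and ldCil were −0.31 and −0.05, and centring on cardiomyocyte markers gave −0.79 and −0.48. Without S11 the value for ldCil was −0.08, and without S3 it was −0.21.

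Ldb3 was 8.59, 8.86 and 8.38 in control, 8.26, 9.12, 9.20 and 8.72 in AngII, 8.46, 8.52, 9.05 and 9.18 in ldCil and 8.90, 8.88, 9.26 and 9.40 in AngII+ldCil. The 4 AngII+ldCil values lay above the control values, S14 only just, whereas the AngII and ldCil groups ran from below to above them. The log2 fold change of AngII+ldCil against control was 0.50 (SE 0.24, unadjusted p = 0.057, adjusted p = 0.849, limma). Des, which links Z-discs sideways, had the highest mean of the role, with 10.24, 10.21 and 10.18 in control, 10.41, 9.84, 9.59 and 10.45 in AngII, 10.18, 10.21, 10.34 and 9.64 in ldCil and 10.12, 10.15, 9.88 and 9.84 in AngII+ldCil. Control was tight, the 4 AngII+ldCil values lay below it, AngII and ldCil reached both above and below, and the lowest libraries were S7 and S12. The Des fold changes against control were −0.14 for AngII, −0.12 for ldCil and −0.21 for AngII+ldCil, each with an SE of 0.22. The AngII value was 0.03 without S7 and the ldCil value 0.03 without S12.

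Flnc, Xirp1 and Xirp2 had very low spread in control and a wider spread in the treated groups. No control library belongs to the low-scoring set of the first principal component (S6, S7, S11, S12 and S15). In that set Flnc was 8.35 to 10.04, and in the treated libraries S5, S9 and S10 it was 7.14 to 7.58. The parts of treatment and of this component in the spread were not tested. Flnc was 7.46, 7.39 and 7.55 in control, 7.14, 9.30, 8.47 and 8.24 in AngII, 7.50, 7.58, 10.04 and 8.51 in ldCil and 7.83, 7.72, 8.35 and 8.77 in AngII+ldCil. Xirp1 was 7.40, 7.66 and 7.51 in control, 6.97, 8.37, 7.95 and 8.06 in AngII, 7.56, 7.61, 8.80 and 8.07 in ldCil and 7.86, 7.69, 8.25 and 8.29 in AngII+ldCil. Both were highest in S11 and S6 and lowest in S5. In both genes all AngII+ldCil values lay above control. Xirp2 was 5.41, 5.70 and 5.49 in control, 5.52, 7.003, 5.96 and 8.42 in AngII, 5.70, 5.74, 8.11 and 6.20 in ldCil and 6.11, 5.95, 7.08 and 5.70 in AngII+ldCil. It had the widest range of the 35, a factor of 8.03 from S1 to S8, and its high libraries, S8, S11, S15 and S6, came from 3 treatments.

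For Flnc the log2 fold change of ldCil against control was 0.94 (SE 0.55, unadjusted p = 0.106, adjusted p = 0.966, limma), 0.40 without S11 and 0.24 with library weights. For Xirp1 it was 0.49 (SE 0.32, unadjusted p = 0.148), 0.23 without S11 and 0.22 with library weights. S11 was the highest ldCil library for both, and Xirp1 and Flnc were close to control in S9 and S10. For Xirp2 the fold change of AngII against control was 1.19 (SE 0.64, unadjusted p = 0.0834, adjusted p = 0.782), and 0.62 without S8. Its interaction was −1.42 (SE 0.87, unadjusted p = 0.126), −0.85 without S8, −0.86 without S11 and −0.76 with library weights. Without S5, an AngII library in which Flnc, Xirp1 and Synpo2l were at their lowest, 4 members passed an unadjusted p under 0.05 for AngII against control, namely Synpo2l, Flnc, Xirp1 and Xirp2, all upward. Under that setting 12.8% of all genes passed.

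**Figure D3:**
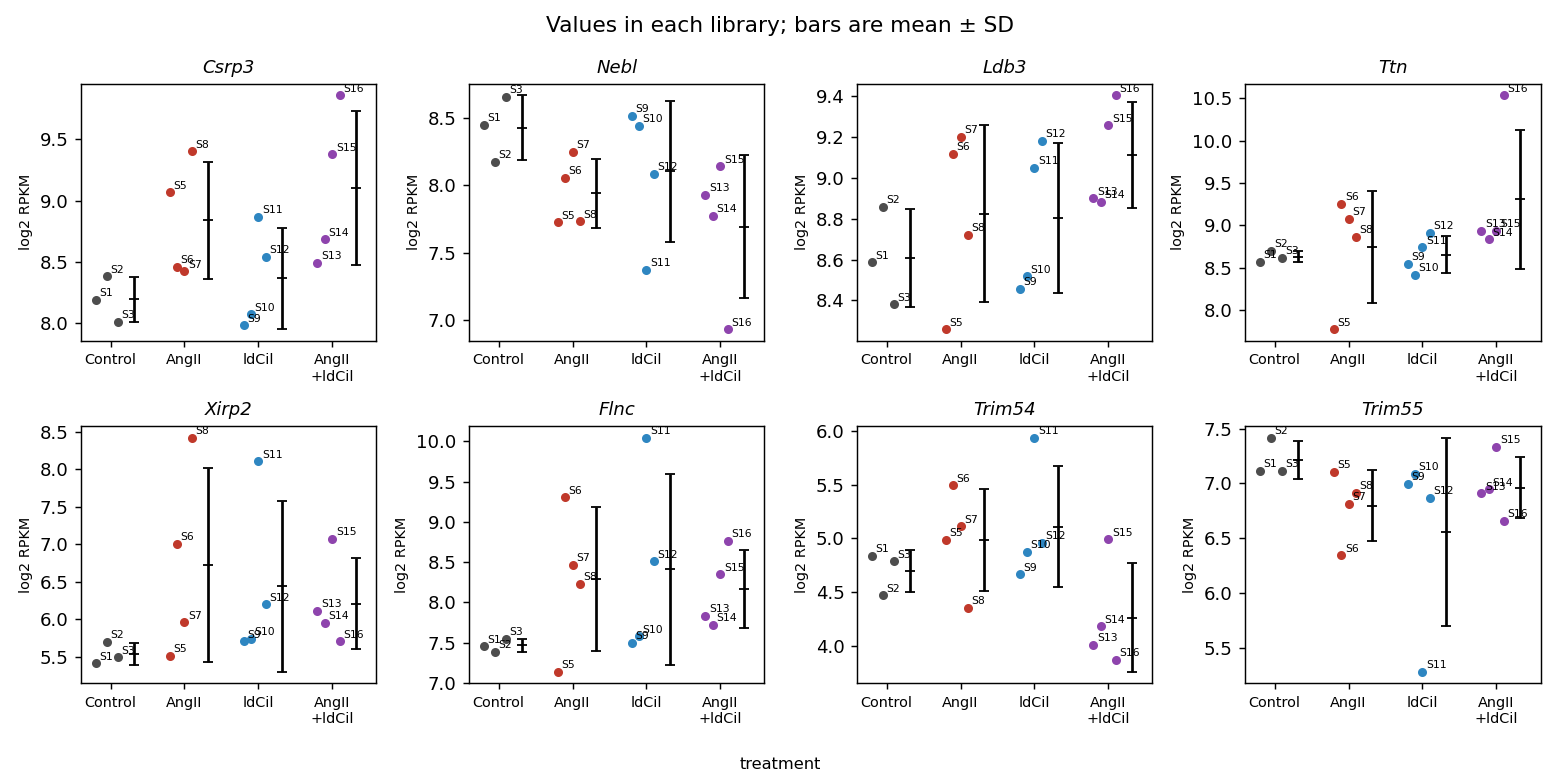
Log2 RPKM (vertical axes, 1 scale per gene) of 8 genes in each library by treatment (horizontal axes), with bars at the mean ± SD of each group. Csrp3 lies above control in all 8 libraries with AngII, Nebl lies below control in the 4 AngII+ldCil libraries, and single libraries such as S16 for Ttn (10.53) and S11 for Flnc (10.04) set the spread of their groups.

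The PDZ-LIM and FHL adaptors bind alpha-actinin or titin and carry signalling proteins to the Z-disc and I-band. Their means were 9.24 for Pdlim5, 8.46 for Fhl1, 8.19 for Fhl2, 5.60 for Pdlim1 and 5.35 for Pdlim3. Pdlim5 (ENH) was 9.29, 9.27 and 9.19 in control, 9.59, 9.03, 9.19 and 9.27 in AngII, 9.34, 9.24, 8.90 and 9.17 in ldCil and 9.29, 9.33, 9.28 and 9.16 in AngII+ldCil. Its groups overlapped throughout, and its fold changes against control were 0.02, −0.09 and 0.01 for AngII, ldCil and AngII+ldCil, each with an SE of 0.14. Pdlim3 (ALP) had the widest range here, with 5.42, 5.42 and 5.32 in control, 5.62, 5.14, 5.44 and 5.99 in AngII, 5.18, 5.30, 4.35 and 5.58 in ldCil and 5.24, 5.29, 6.07 and 4.93 in AngII+ldCil. S11 was its lowest library and S15 its highest, while the control values lay close together. For Pdlim3 the fold change of ldCil against control was −0.29 (SE 0.29, unadjusted p = 0.34), −0.04 without S11 and −0.44 without S12.

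Fhl1 and Fhl2, the LIM-only partners of titin, moved against each other across libraries. The difference Fhl2 minus Fhl1 ran from −1.64 in S11 and −1.37 in S16 to 1.24 in S15 and 1.37 in S12, with a median of −0.57. It was above 0 in S2, S6, S7, S12 and S15, which come from all 4 treatments, and below 0 in the other 10. Fhl1 itself ran from 7.62 to 9.18 and Fhl2 from 7.32 to 8.99, and Pdlim1 from 5.03 to 6.20. The treatment groups accounted for 5.49% of the variance of Fhl1 and 12.5% of that of Fhl2.

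The myosin folding factors were at 7.196 for Smyd1, a muscle lysine methyltransferase that acts in myofibril assembly, and 6.41 for Unc45b, the muscle myosin chaperone. Smyd1 was 6.99, 7.40 and 6.84 in control, 6.63, 7.40, 7.61 and 7.72 in AngII, 6.84, 6.98, 6.68 and 7.79 in ldCil and 7.28, 7.28, 8.196 and 6.31 in AngII+ldCil. Again S15 and S16, both of the AngII+ldCil group, held the highest and the lowest value, and all groups overlapped. The Smyd1 fold changes against control were 0.26, −0.01 and 0.19 for AngII, ldCil and AngII+ldCil, each with an SE of 0.38. Leaving out 1 library turned the last value to −0.12 (S15) or raised it to 0.51 (S16), and moved the AngII value from 0.14 (S8) to 0.50 (S5) and the ldCil value from −0.25 (S12) to 0.15 (S2). Unc45b ranged from 5.56 in S11 to 6.73 in S15.

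The 4 ubiquitin ligases differed in level and in pattern. Trim63 (MuRF1) had a mean of 7.53, Trim55 (MuRF2) of 6.86, Fbxo32 (atrogin-1) of 4.95 and Trim54 (MuRF3) of 4.77. Trim63 was 7.17, 7.28 and 7.07 in control, 6.73, 8.12, 8.16 and 7.33 in AngII, 7.16, 7.10, 8.001 and 8.22 in ldCil and 7.32, 7.32, 8.43 and 7.48 in AngII+ldCil. Its 5 highest libraries, S15, S12, S7, S6 and S11, came from 3 treatments. The 4 AngII+ldCil values lay above control, whereas AngII and ldCil overlapped it. The fold changes of Trim63 against control were 0.41, 0.45 and 0.47 for AngII, ldCil and AngII+ldCil, each with an SE of 0.37. Single libraries moved them: leaving out S5 gave 0.70 for AngII, S6 gave 0.24 and S7 gave 0.22, and the ldCil value was 0.25 without S12 and the AngII+ldCil value 0.20 without S15. With library weights the values were 0.90, 0.06 and 0.21, and with centring on cardiomyocyte markers the AngII value was 0.10.

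Fbxo32, the F-box protein that with Trim63 is the usual reporter of muscle atrophy, had the smallest share of variance between groups of the 35, 1.9%. It was 4.94, 4.67 and 5.04 in control, 3.75, 5.48, 5.79 and 4.42 in AngII, 4.66, 4.71, 4.97 and 5.74 in ldCil and 4.59, 4.42, 5.91 and 5.22 in AngII+ldCil. The 4 highest libraries were S15, S7, S12 and S6, as for Trim63, and S5 was the lowest for both. For Fbxo32 the fold changes against control were −0.02, 0.14 and 0.15, each with an SE of 0.45, so the 95% interval for AngII ran from −0.98 to 0.94. With each library left out in turn the AngII value ran from −0.33 (S7) to 0.35 (S5), that of ldCil from −0.10 (S12) to 0.26 (S9) and that of AngII+ldCil from −0.14 (S15) to 0.36 (S14).

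Trim55 went a different way. It was 7.12, 7.42 and 7.12 in control, 7.11, 6.35, 6.81 and 6.92 in AngII, 6.997, 7.09, 5.29 and 6.87 in ldCil and 6.91, 6.95, 7.33 and 6.66 in AngII+ldCil. S11, a high library for Trim63, was the lowest for Trim55, and all AngII and ldCil values lay below control, S5 only just. The log2 fold change was −0.42 (SE 0.34, unadjusted p = 0.241) for AngII, −0.27 without S6, and −0.65 (SE 0.34, unadjusted p = 0.077, adjusted p = 0.966, limma) for ldCil, −0.23 without S11 and −0.18 with library weights. Centring on cardiomyocyte markers gave −0.73 for AngII. The interaction was 0.82 (SE 0.47, unadjusted p = 0.1), 0.40 without S11 and 0.43 with library weights. The difference Trim63 minus Trim55 ran from −0.38 in S5 to 2.71 in S11.

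Trim54 had an unadjusted p under 0.05 for AngII+ldCil against AngII and for the interaction. The first was over 0.05 on leaving out any 1 of S5, S6, S7, S13, S14 or S16, and the second on leaving out S2, or S11 and S16 together. It was 4.83, 4.47 and 4.79 in control, 4.99, 5.49, 5.11 and 4.36 in AngII, 4.67, 4.87, 5.94 and 4.96 in ldCil and 4.01, 4.18, 4.99 and 3.87 in AngII+ldCil. S13, S14 and S16 held the 3 lowest of the 15 values, while S15 lay within the AngII range, so the groups overlapped. The log2 fold change of AngII+ldCil against AngII was −0.73 (SE 0.30, unadjusted p = 0.03, adjusted p = 1, limma), from −0.97 to −0.56 with each library left out in turn. The interaction was −1.14 (SE 0.44, unadjusted p = 0.0221, adjusted p = 0.958), from −1.38 to −0.86. Trim54 is 1 of the 4 members with values under 4.5, where ranks no longer carry the same value in every library.

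**Figure D4:**
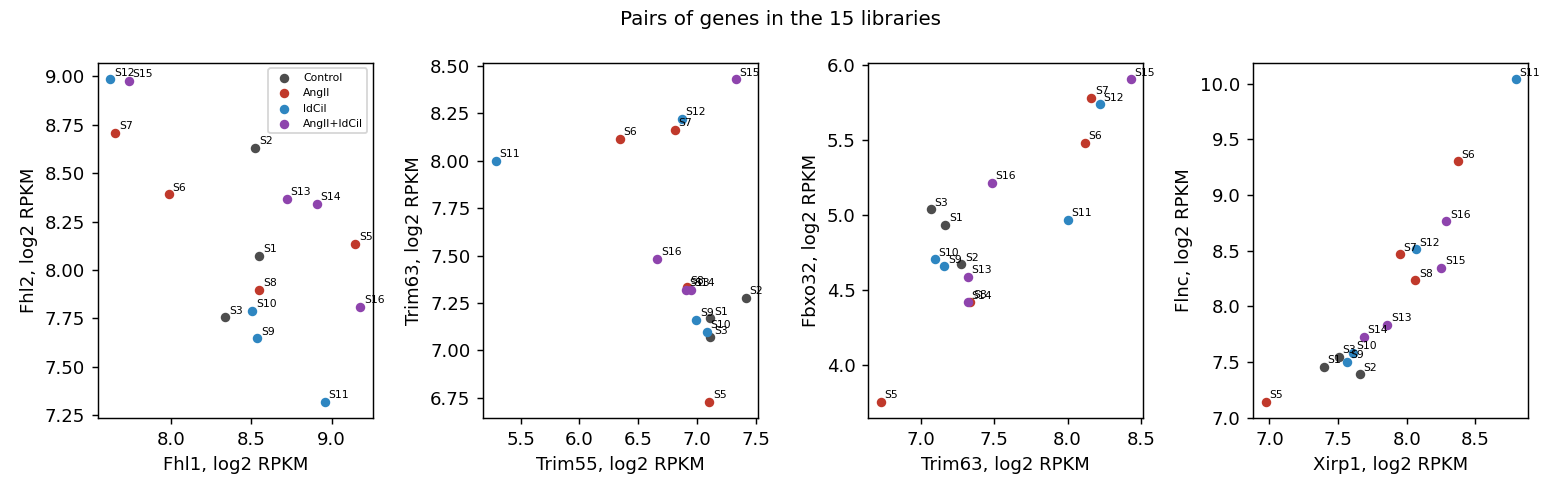
Log2 RPKM of 4 pairs of genes, 1 on each axis, in the 15 libraries, coloured by treatment. Fhl2 is highest where Fhl1 is lowest (S12, S15 and S7), Trim55 is lowest in S11 where Trim63 is high, and Trim63 with Fbxo32 and Xirp1 with Flnc run together, with S5 lowest in both of these pairs.

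Most of the variance of every member lay within the treatment groups and not between them. The range over the 15 libraries had a median of 1.36 over the members and 1.07 over all genes tested, with 26 members over 1 and 8 over 2. Control was the least spread group: the median range within it was 0.30, against 0.85 in AngII, 0.88 in ldCil and 0.95 in AngII+ldCil. Control has 3 libraries and the others 4, which alone makes its range narrower. A wider range than in control was found for 32 members in AngII, 30 in ldCil and 34 in AngII+ldCil. The same count was not made over all genes, so it is not shown to be particular to the members.

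S5, S11, S15 and S16, from all 3 treated groups, held the highest value of 28 of the 35 members and the lowest of 28. S15 alone was highest for 13. These 4 libraries also stood furthest from the mean over all genes tested. The mean absolute deviation was 0.453 in S5, 0.381 in S11, 0.339 in S15 and 0.371 in S16, against 0.188 to 0.295 in the others. The counts of highest and lowest values are thus not shown to be particular to the members. The mean over the members, each centred, was 0.40 in S15, 0.16 in S12 and 0.15 in S8, and lowest at −0.17 in S3 and S9. By group it was −0.10 ± 0.08 (SD, n = 3) in control, 0.07 ± 0.13 (n = 4) in AngII, −0.05 ± 0.15 in ldCil and 0.06 ± 0.23 in AngII+ldCil. The cardiomyocyte markers outside the members had centred means of 0.52 in S15, 0.40 in S7 and S12 and 0.32 in S6, and of −0.46 in S16. In S16 the fibroblast markers were also low, at −1.14, and the macrophage markers at −1.36, while in S5 the macrophage markers were at 1.28. The part of these cell type markers in the members' values was not tested.

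**Figure D5:**
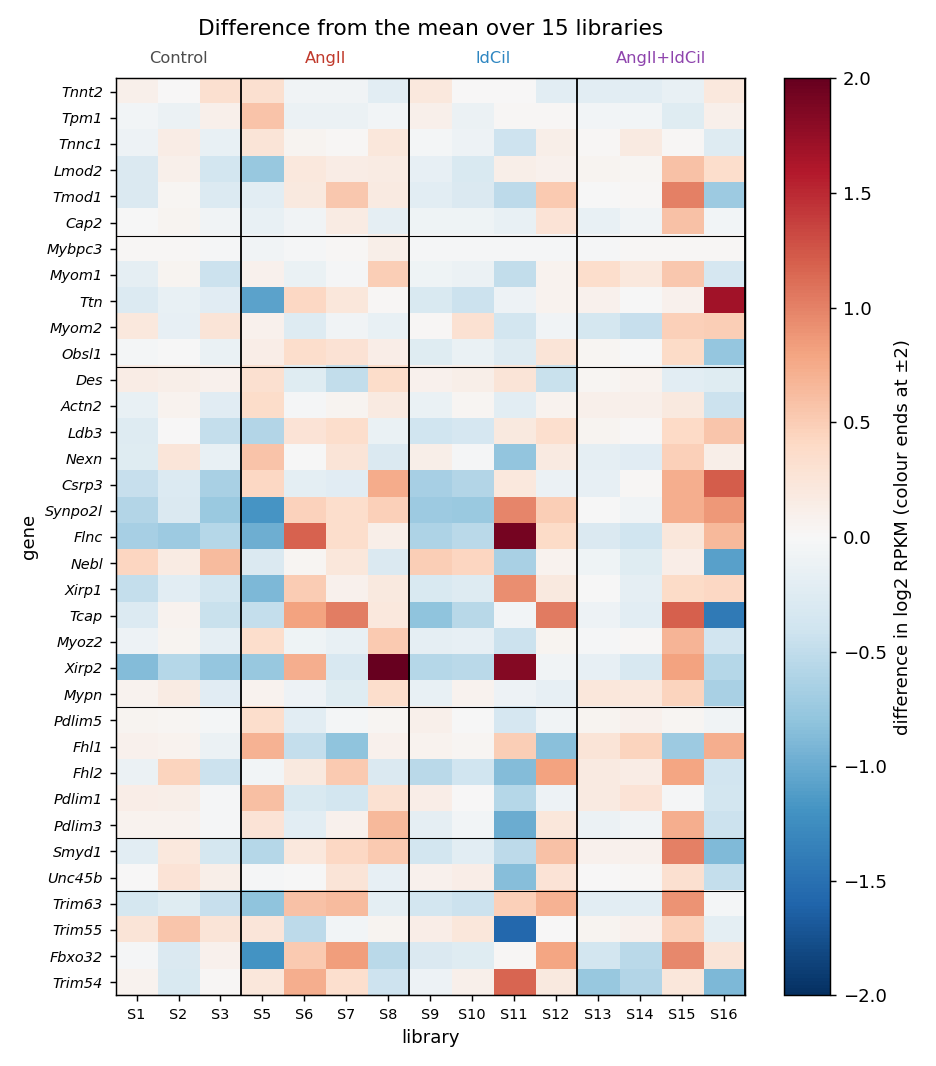
Difference of each gene's log2 RPKM from its mean over the 15 libraries (colour, ending at ±2), with genes in rows by role and libraries in columns by treatment. The strongest colours lie in S5, S11, S15 and S16 and in single cells such as Xirp2 in S8. The 3 control columns are pale, with the strongest blue for Xirp2, Synpo2l and Flnc.

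The centred mean of the 4 ligases was 0.64 in S15, 0.44 in S7, 0.42 in S12 and 0.33 in S6, and −0.38 in S5, and Trim63 and Fbxo32 carried this order. Trim55 was low in S6, and both Trim55 and Trim54 lay above their own means in S5. Tcap showed the same libraries at the top, from 8.06 in S15 to 7.68 in S6, and S16 at the bottom with 5.46. S6, S7, S12 and S15 were also the 4 libraries with the lowest Fhl1 values. They belong to the low-scoring set of the first principal component. The 40 other genes of muscle protein turnover, described below, had their highest centred means in the same 4 libraries. These were 0.26 in S15, 0.16 in S6, 0.15 in S7 and 0.14 in S12, with the lowest, −0.28, in S5. The order was thus not particular to the ligases.

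Of 18 interferon-stimulated genes tested, none passed an adjusted p of 0.05 in any comparison (limma). At an unadjusted p under 0.05, 6 passed downward for AngII, where 6.04% of all genes passed, 0 for ldCil (1.95%) and 15 for AngII+ldCil against control (5.62%), with none upward. Their median log2 fold change was −2.43 for AngII, −1.49 for ldCil and −3.07 for AngII+ldCil, all against control, and all 18 lay below 0 in each. Their summed RPKM ran from 323 to 1437 in control, 71.6 to 908 in AngII, 62.6 to 1356 in ldCil and 80 to 159.6 in AngII+ldCil. The part of this difference in the members' values was not tested.

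Other genes of the same pathways, came from lists chosen with earlier results of these data known. Of 46 further sarcomere and Z-disc genes listed, 42 were tested, and none passed an adjusted p of 0.05. At an unadjusted p under 0.05, 4 passed upward and 0 downward for AngII against control, beside 438 and 338 of all genes tested (6.04%), and 5 and 0 for AngII+ldCil against control, beside 347 and 375 (5.62%). None passed in the other comparisons. Their median fold change was 0.20 for AngII and 0.14 for AngII+ldCil. The smallest p upward belonged to Myl4, the atrial essential light chain, with a log2 fold change of 1.51 (SE 0.62, unadjusted p = 0.0277) for AngII, and to Jph2, junctophilin 2, with 0.48 (SE 0.15, unadjusted p = 0.00759, adjusted p = 0.849, limma) for AngII+ldCil. Downward it belonged to Cryab, the small heat shock protein alphaB-crystallin, with −0.23 for AngII and −0.22 for AngII+ldCil. For ldCil against control they were Speg (0.29), a muscle kinase, and cardiac actin Actc1 (−0.18). Against AngII they were Synm (0.75), the desmin partner synemin, and the myosin heavy chain Myh6 (−0.24), and for the interaction Actc1 (0.40) and the slow troponin T Tnnt1 (−1.66).

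Of 40 further genes of muscle protein turnover and quality control, all 40 were tested and none passed an adjusted p of 0.05. Upward and downward, 0 and 1 passed an unadjusted p under 0.05 for AngII (6.04% of all genes), 0 and 0 for ldCil (1.95%), 2 and 0 for AngII+ldCil against control (5.62%), 1 and 3 for AngII+ldCil against AngII (2.58%), and 2 and 0 for the interaction (3.86%). Nedd4, a HECT ubiquitin ligase, had −0.33 (SE 0.14, unadjusted p = 0.0346) and Capns1, the small calpain subunit, 0.23 for AngII. For ldCil they were the autophagy receptor Sqstm1 (0.53) and the transcription factor Klf15 (−0.53). For AngII+ldCil against control they were Asb2 (0.58, SE 0.22, unadjusted p = 0.0195), part of a ligase that targets filamins, and the lysosomal protease Ctsl (−0.57). Against AngII the F-box gene Fbxo40 had 0.42 (unadjusted p = 0.0357) and Capns1 −0.28 (unadjusted p = 0.0253). For the interaction Fbxl22, an F-box protein of the Z-disc, had 0.96 (unadjusted p = 0.0427) and the calpain inhibitor Cast −0.30.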

How the data were processed

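Poly(A) RNA of 15 libraries of mouse cardiomyocytes was sequenced on an Illumina NextSeq. The submitters' processing notes name HISAT2, HTSeq and GRCm38 (mm10); no version or annotation release is given in the sources used here. The authors deposited log2 RPKM values that had passed through conditional quantile normalisation, without read counts. Identifiers were matched to GENCODE M21 (14329 of 14337 found). The 12848 genes that averaged a log2 RPKM of 0 or more were fitted in R 4.3.3 with limma 3.58.1, with 1 mean per group over all libraries, moderation with a trend, 2-sided p-values and Benjamini-Hochberg adjustment over all genes tested. Groups came from the sample labels. The fit was also run on simulated data with known changes and independent noise in each gene and library. Such data hold no component shared over genes, so they cannot show how the fit behaves where 1 is present, as here. The members, gene lists and rule for named genes were chosen with earlier results of these data known. All members are named. Values in every library are given for the 2 members with the smallest unadjusted p in each direction of each comparison, and for the member with the widest range and with the highest mean of each role. For the other pathway lists the gene with the smallest p in each direction is named. The alternatives were no filter, a filter at 2, 1 added to RPKM, median centring, quantile normalisation, centring on cardiomyocyte markers, only the groups compared, no trend, robust moderation, library weights and each library left out. Leaving out S11 and S16 together was chosen after seeing the data. Protein sequences were not analysed here.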

Additional observations from a re-analysis of the deposited data

Results flagged for a closer look

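Within groups of 4 libraries, the highest or lowest library stood apart from the other 3 by Dixon's criterion at 95% in 12 of 104 tests over the members. Chance flags about 1 in 20 of separate tests, but these tests share libraries. The criterion was not applied to all genes, so the count is not shown to be particular to the members. Of the 12 flags, 3 lay in S5, 3 in S16, 2 in S11, 2 in S15, 1 in S12 and 1 in S13. In S5 (AngII), Tpm1 was 11.54 against 10.85 to 10.92 in the other AngII libraries, Lmod2 was 7.59 against 8.51 to 8.57, and Synpo2l was 7.43 against 8.95 to 9.09. In S16 (AngII+ldCil), Ttn was 10.53 against 8.84 to 8.93, Tnnt2 was 11.27 against 10.85 to 10.92, and Actn2 was 9.42 against 9.95 to 10.04. In S11 (ldCil), Trim55 was 5.29 against 6.87 to 7.09 and Unc45b was 5.56 against 6.51 to 6.69. In S15 (AngII+ldCil), Trim63 was 8.43 against 7.32 to 7.48 and Cap2 was 7.49 against 6.76 to 6.86. Cap2 also stood apart in S12 (ldCil), at 7.18 against 6.76 to 6.82. Mybpc3 in S13 (AngII+ldCil) was 10.53 against 10.58 in each of the other 3, which is a neighbouring value in the shared ranking. All of these are log2 RPKM. The control group has 3 libraries and was not tested in this way.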

How the results depend on the processing

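No adjusted call was made on a member under any alternative except library weights, which gave 19 for AngII against control, 10 for AngII+ldCil against control, 11 for AngII+ldCil against AngII and 5 for the interaction. The shares of all genes called were 48.6%, 18%, 31.5% and 18.6%. At an unadjusted p under 0.05 the weights gave 24, 15, 15 and 11 members in the same order. Of all genes, 55.5%, 32.7%, 44.9% and 36.4% passed. With them the Ttn fold change turned to −0.16 for AngII+ldCil against AngII and to −0.072 for the interaction, and Lmod2 turned to −0.077 for AngII+ldCil against AngII. The weights ran from 0.113 (S5) to 7.01 (S1). In control, S2 had 0.974 and S3 1.64. In AngII, S6 had 1.65, S7 3.39 and S8 0.363. The weighted comparison of AngII with control thus rested mostly on S1, S6 and S7. Their scores on the first principal component were 37.3, −41.7 and −39.4. The part of this component in the weighted calls was not tested. Fitting only the groups compared gave 3 unadjusted passes for AngII against control (8.18% of all genes) and 8 for AngII+ldCil against control (10.7%). Centring on cardiomyocyte markers gave 1 each for these comparisons, and medians of −0.15 for AngII, −0.077 for AngII+ldCil against control and 0.34 for the interaction. The share of all genes passing was not computed for this centring. Leaving out S11 and S16 gave 5 for AngII against control (8.32% of all genes) and 0 for the interaction (2.22%). With each library left out in turn, unadjusted passes ranged from 0 to 4 for AngII (4 without S5, 2 without S11, 1 without S6, S7 or S16), 0 to 2 for ldCil (2 without S9, 1 without S10) and 0 to 5 for AngII+ldCil against control (5 without S5, 4 without S2 or S14, 1 without S1, 0 without S3). They ranged from 0 to 2 for AngII+ldCil against AngII (2 without S15, 0 without S5, S6, S7, S13, S14 or S16) and 0 to 1 for the interaction (0 without S2). Without S5, 12.8% of all genes passed for AngII and 8.02% for AngII+ldCil against control. The share of all genes was not computed for the other libraries left out in turn. The medians over the members ranged with each library left out from 0.09 to 0.26 for AngII, −0.07 to 0.03 for ldCil, −0.05 to 0.20 for AngII+ldCil against control, −0.09 to 0.07 against AngII and −0.07 to 0.10 for the interaction. Depth is unknown, values above 4.5 are ranks, and groups of 3 or 4 limit what could be found. No paired analysis was possible because the labels give no numbers shared between groups.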
